A study of Mus musculus with 2 samples.

Results

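The stretch of mouse chromosome 11 around Igfbp4 and Tns4 (mm9, chr11:98800000-99100000) was described from DNase-seq peak lists, where a peak marks DNA that DNase I, a nuclease, could reach and cut in nuclei. Its members were all peaks whose summit, the point of highest signal, lay in this 300 kb window, 93 in G1E-ER4 and 134 in G1E, or 227 of 400000 peaks in all. G1E-ER4 is a line of male strain 129 mouse erythroid cells to which Gata1 was restored, and it was collected after 24 h of differentiation in 10 nM beta-estradiol. It was set against G1E, an erythroid progenitor line, also male and of strain 129, that lacks Gata1 and was not treated. The age given for both is that of embryonic stem cells, from which such lines are grown. Each state was 1 sample with 2 peak lists of 100000 peaks. Whether the 2 lists of a sample came from separate cultures is not stated, so their spread may be technical, and read depth is unknown. Cell line, restored gene and estradiol differ together and cannot be told apart, and with 1 sample per state no test between the states was made.

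The window was selected on these same peak lists, for its many sites open in G1E only, so that density is a description and not a result. Signal is not scaled between lists, so each peak is given by its percentile in its own list, where 100 is the strongest peak. At its low edge the peaks just inside stood at 13.8 and 69.1 in G1E-ER4 lists 1 and 2 and 21.4 and 52.3 in G1E lists 1 and 2, and those just outside at 97.7 and 98.0 in G1E-ER4, against 97.3 and 98.9 in G1E. At its high edge those just inside were at 20.7 and 62.3 in G1E-ER4, against 88.2 and 84.6 in G1E, and those just outside at 34.5 and 11.7 in G1E-ER4, against 31.7 and 36.1 in G1E. Of the window's peaks, 50 and 43 came from G1E-ER4 lists 1 and 2, and 76 and 58 from G1E lists 1 and 2. Promoters of the erythroid marker genes Klf1, Tal1, Epor and Slc4a1 had a peak in all 4 lists, at percentiles 90.6 to 97.6. Of 7 markers of T cells, B cells, liver and embryonic stem cells, the liver gene Apoa1 did, at 78.1 and 88.1 in G1E-ER4, against 85.03 and 83.3 in G1E, while Cd3e and Alb had none in any list. The others were in some lists. The T cell gene Cd3g was at 4.64 and 53.7 in G1E-ER4 and at 1.64 in G1E list 2, and the stem cell gene Pou5f1 was at 36.9 in G1E-ER4 list 2 and at 47.2 and 53.5 in G1E. Cd79a of B cells and Nanog of stem cells were in G1E-ER4 list 2 alone, at 15.9 and 41.3. G1E-ER4 list 1 stood somewhat apart, with a median GC of 49.5% at its summits, against 54.0% in G1E-ER4 list 2 and 53.5% and 51.5% in G1E lists 1 and 2.

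Tns4 encodes tensin 4 (also called Cten), an adaptor of focal adhesions that binds the tails of integrins and lacks the actin-binding part of other tensins. Igfbp4 encodes a secreted protein that binds insulin-like growth factors and mostly restrains them. Open sites away from gene starts are often enhancers, where transcription factors such as Gata1 bind and from where they act on genes over a distance. A DNase-seq peak shows that the DNA is reachable, and not which gene it serves or whether that gene is transcribed.

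The 6 stretches printed here are shown as 200 bases around the G1E summit, mm9 plus strand. Every GATA motif is in capitals, on either strand (AGATAA or its variant AGATAG, and likewise TGATAA or its variant TGATAG). The upstream site at chr11:98966445-98966644 lay 15.9 kb upstream of the Tns4 start. It had the highest mean G1E percentile of the window's sites with a summit in both G1E lists and none in G1E-ER4 list 1. G1E-ER4 list 2 had a summit there at percentile 30.4, so this site is not G1E-only. The other 5 are the G1E-only regions in which the summits of both G1E lists lay within 100 bp of each other. They are the Igfbp4-Tns4 site (chr11:98921832-98922031, between the genes), the Tns4 intron site (chr11:98935260-98935459) and the upstream sites A, B and C (chr11:98960094-98960293, chr11:98961322-98961521 and chr11:98962131-98962330).
Strong upstream site: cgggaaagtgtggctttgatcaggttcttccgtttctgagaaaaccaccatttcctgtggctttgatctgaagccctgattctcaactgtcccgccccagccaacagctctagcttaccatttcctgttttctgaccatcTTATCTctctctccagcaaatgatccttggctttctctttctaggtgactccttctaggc
Igfbp4-Tns4 site: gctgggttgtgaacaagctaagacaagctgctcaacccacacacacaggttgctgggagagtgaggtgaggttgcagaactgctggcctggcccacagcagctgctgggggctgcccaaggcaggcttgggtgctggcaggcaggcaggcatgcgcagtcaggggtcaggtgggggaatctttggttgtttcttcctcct
Tns4 intron site: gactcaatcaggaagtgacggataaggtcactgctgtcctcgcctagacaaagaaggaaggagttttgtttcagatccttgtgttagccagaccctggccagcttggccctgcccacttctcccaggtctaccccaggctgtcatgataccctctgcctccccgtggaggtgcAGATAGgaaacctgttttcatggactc
Upstream site A: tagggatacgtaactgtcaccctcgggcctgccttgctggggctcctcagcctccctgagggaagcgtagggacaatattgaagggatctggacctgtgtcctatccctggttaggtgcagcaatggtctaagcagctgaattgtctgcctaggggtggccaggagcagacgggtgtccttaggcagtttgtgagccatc
Upstream site B: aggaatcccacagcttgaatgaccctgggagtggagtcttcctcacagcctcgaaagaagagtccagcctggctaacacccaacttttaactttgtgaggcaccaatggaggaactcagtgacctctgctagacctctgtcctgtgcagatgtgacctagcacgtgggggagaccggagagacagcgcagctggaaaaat
Upstream site C: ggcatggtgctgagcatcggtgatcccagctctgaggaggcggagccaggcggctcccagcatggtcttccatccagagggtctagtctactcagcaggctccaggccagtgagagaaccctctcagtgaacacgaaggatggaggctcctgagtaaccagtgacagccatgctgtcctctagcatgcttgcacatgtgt
Of these 6, the strong upstream site and the Tns4 intron site each held 1 GATA motif. In the strong upstream site the motif stood on the minus strand with CTG 7 bases before it. A CTG 7 to 9 bases before a GATA motif, which overlaps the count of GATA motifs, was in 4.23% and 4.66% of all 200-base summit windows of G1E lists 1 and 2. It was in 1 of the 29 G1E peaks of the window's G1E-only regions (3.45%), against 6.48% of 15422 such peaks over the genome. The Tns4 intron site lay 182 bp from a further annotated start of Tns4, inside the gene.

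Peaks of the 4 lists that shared at least 1 bp were joined into regions, which gave 85 regions in the window. Of them 2 (2.35%) were G1E-ER4-only, marked in both lists of that state and in neither of the other, and 14 (16.5%) were G1E-only in the same sense. Over the genome 2.35% of 188044 regions were G1E-ER4-only and 3.99% were G1E-only. The G1E-only count is the one that picked the window, so nothing is read from its excess. All 14 G1E-only regions fell in 1 window of 100 kb, the highest count among 26559 non-overlapping windows of that size, ahead of the next with 11. Clusters elsewhere may be split between such windows, so this rank depends on where the windows begin. In windows of 300 kb the same 14 regions ranked 15, with 6 windows at that count, and the highest window held 24.

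Counts of this kind depend on each list. Leaving out G1E-ER4 list 1 or 2 gave 20 or 21 G1E-only regions, and leaving out G1E list 1 or 2 gave 22 or 27, since each omission relaxes what a region must meet. Among the strongest 50% of peaks of each list, 1 region was G1E-ER4-only and 3 were G1E-only. Of those 3, only the Igfbp4-Tns4 site was also G1E-only with all peaks. Among the strongest 20000 peaks, 0 regions were G1E-ER4-only and 1 was G1E-only, at the strong upstream site.

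**Figure D1:**
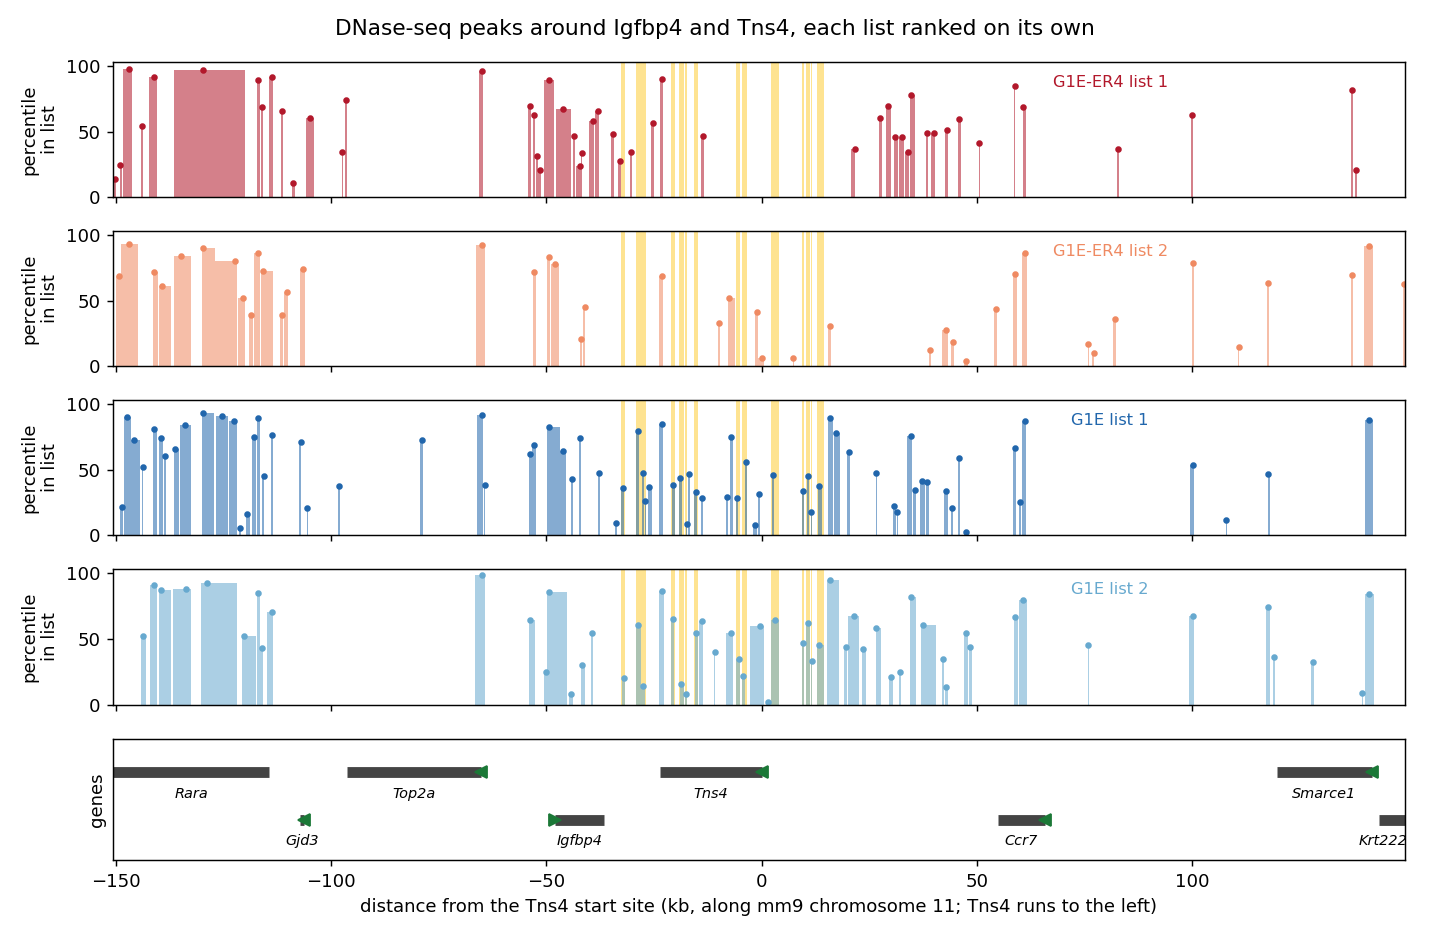
Peaks of the 4 lists in the window, with distance from the Tns4 start site in kb on the x axis and percentile in the own list on the y axis; bars span the peaks, dots mark summits, yellow bands are the 14 G1E-only regions, and grey bars are genes with green arrowheads at their starts. The yellow bands lie over and beside Tns4, where the G1E-ER4 lists have few peaks. The strongest summits of the outermost bands are 32.2 kb from the Tns4 start on the Igfbp4 side and 13.5 kb on the upstream side.

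Along the window, both G1E lists had more peaks than both G1E-ER4 lists in the Tns4 gene and upstream of it, and the lists overlapped in the other segments. The window was chosen for its G1E-only regions, and 6 of these lay in the Tns4 gene and 5 between Tns4 and Ccr7. Nothing is therefore read from the G1E excess in these 2 segments, in count or in share covered. Over Rara, the retinoic acid receptor alpha gene, there were 8 and 11 peaks for G1E-ER4 lists 1 and 2, against 17 and 8 for G1E lists 1 and 2, and every one of them met a peak of the other state. Within the Tns4 gene itself, 23.6 kb long, there were 2 and 4 peaks in G1E-ER4, against 13 and 11 in G1E. Peaks covered 5.90% and 17.7% of the gene in G1E-ER4, against 29.0% and 46.0% in G1E.

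Between Tns4 and Ccr7 the counts were 12 and 8 peaks in G1E-ER4, against 19 and 19 in G1E, covering 18.4% and 10.1% against 24.8% and 42.2% of 54.9 kb. Around Igfbp4 the states overlapped, with 16 and 6 peaks in G1E-ER4, against 15 and 10 in G1E. From Gjd3 to Top2a there were 6 and 3 peaks in G1E-ER4, against 5 and 1 in G1E. From Ccr7 to the end of the window there were 6 and 11 in G1E-ER4, against 7 and 9 in G1E.

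**Figure D2:**
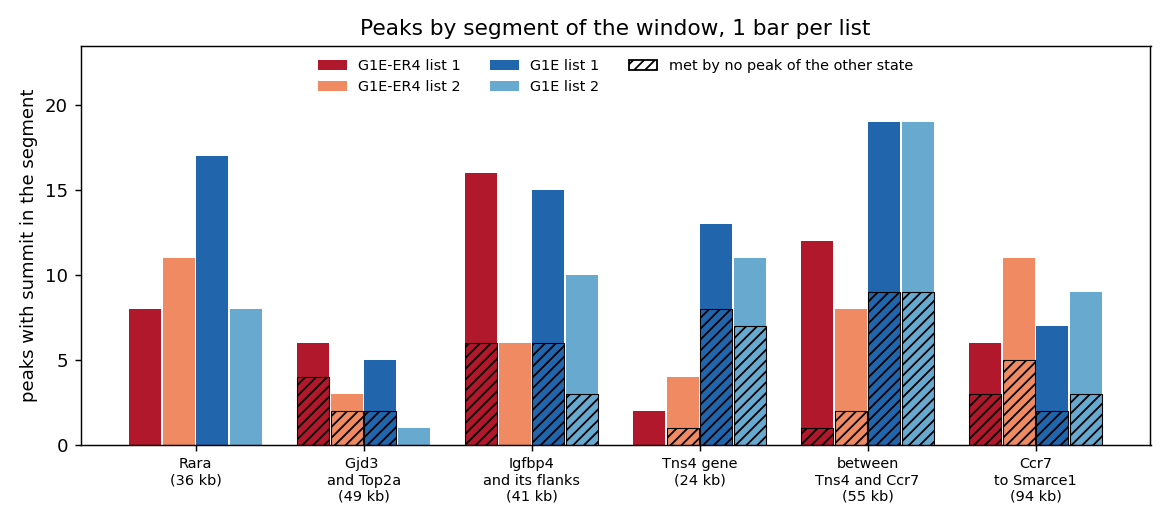
Peaks with their summit in each of 6 segments of the window, 1 bar per list, with segment length in kb below and hatched bars for peaks that no peak of the other state meets. In the Tns4 gene the bars are 2 and 4 for G1E-ER4 and 13 and 11 for G1E, and over Rara no bar is hatched.

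The longest run of G1E-only regions not broken by a region of both G1E-ER4 lists was chr11:98929587-98965076, 35.5 kb long, with 11 of the 14 regions. It began in the Tns4 gene and ended with a region whose strongest summit lay 13.5 kb upstream of the Tns4 start. On its Igfbp4 side it was bounded by chr11:98926723-98927856, a region of all 4 lists with its shared summit in a UTR exon at the 3′ end of Tns4. On its Ccr7 side the next region with both G1E-ER4 lists was chr11:98987371-98991083, so 59.5 kb lay between the bounds. That interval held 8 and 6 peaks in the G1E-ER4 lists, against 25 and 24 in the G1E lists. Within the run itself G1E-ER4 list 1 had 1 peak at percentile 46.5 and list 2 had 5 peaks of at most percentile 51.8. The G1E lists had 17 and 16 peaks of at most 74.9 and 65.3. The run and its bounds were set by where peaks of each state lie, so nothing is read from these differences in count.

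The other 3 G1E-only regions lay between Igfbp4 and Tns4, so that all 14 together spanned chr11:98917947-98965076, 47.1 kb. Beyond the window, 1 further G1E-only region was found in the 100 kb below it and 1 in the 100 kb above. The run shortened to 15.96 kb without G1E-ER4 list 1 and lengthened to 58.8 kb without G1E list 2. With any G1E-ER4 peak taken as a break, it was 6.34 kb long (chr11:98929587-98935924) and held 4 G1E-only regions.

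By place, 3 G1E-only regions lay between Igfbp4 and Tns4, 6 in the Tns4 gene and 5 upstream of Tns4. On the Igfbp4 side, chr11:98921433-98922517 was at percentiles 79.4 and 60.4 in G1E lists 1 and 2, the only G1E-only region of the window above percentile 50 in both. Its neighbours chr11:98917947-98918874 (36.1 and 20.3) and chr11:98922712-98923799 (47.5 and 13.9) were weaker. The first of these was only 40 bp from a G1E-ER4 peak, and it was the single G1E-only region with Igfbp4 as the gene of the nearest start.

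In Tns4, 5 of the 6 regions had their strongest summit in an intron. Of these, chr11:98929587-98930442 stood at percentiles 38.6 and 65.3 in G1E lists 1 and 2 and chr11:98934848-98935924 at 33.3 and 54.9. The lowest was chr11:98932826-98933334 at 8.83 and 8.07, close to the end of both lists. The region chr11:98946067-98947189 had its strongest summit in a coding exon, at percentiles 55.6 and 21.6, although the summits of the 2 lists were 662 bp apart.

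Upstream of Tns4 the strongest summits of the 5 regions lay 3.07 kb to 13.5 kb from its start. The nearest region, chr11:98952894-98954727, was at percentiles 46.3 and 64.2 in G1E lists 1 and 2. Upstream site B (chr11:98960965-98961792) was at 45.6 and 62.5, site A (chr11:98959960-98960410) at 33.8 and 47.3 and site C (chr11:98962031-98962406) at 17.9 and 33.6. The region farthest upstream, chr11:98963613-98965076, was at 37.8 and 45.3. None of these 5 reached percentile 75 in a list.

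**Figure D3:**
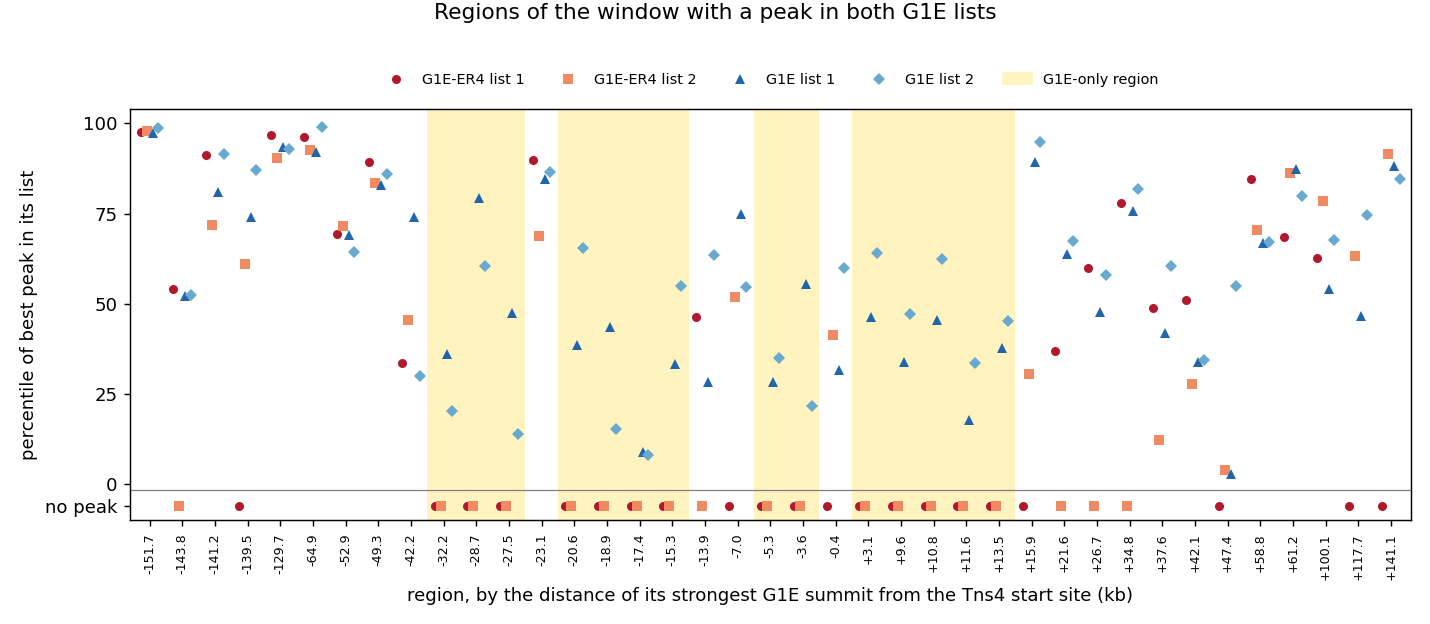
Percentile of the best peak of each list (y axis) in the 39 regions of the window that both G1E lists mark, ordered along the chromosome by distance from the Tns4 start (x axis, kb); markers on the lowest line mean no peak, and shading marks G1E-only regions, and the leftmost region has its best peaks just outside the window. The shaded G1E values run from 8.07 to 79.4, while at +15.9 kb the G1E values are 89.2 and 94.8 with G1E-ER4 list 2 at 30.4 and no peak in list 1.

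The strongest G1E signal near Tns4 lay just past the run, at a site that is not G1E-only by the rule. The region chr11:98965841-98968904, between genes, was at percentile 30.4 in G1E-ER4 list 2 and had no peak in G1E-ER4 list 1, against percentiles 89.2 and 94.8 in G1E lists 1 and 2. The 3 summits fell within 10 bp of each other (98966545, 98966555 and 98966545), so the same point was open in both G1E lists and weakly in 1 G1E-ER4 list. G1E list 1 had a further peak in this region at percentile 77.8. Sites were also joined by summits within 100 bp, with limits of percentile 85 and 50 that were set after the values were seen. A site counts as absent from a list that has no summit there, even where a peak of that list covers it. Of 4 sites at 85 or above in both G1E-ER4 lists, 1 was absent or under 50 in both G1E lists. Of 2 sites at 85 or above in both G1E lists, 1 was absent or under 50 in both G1E-ER4 lists. Over the genome 2.98% of 8990 and 3.92% of 11070 sites were. The G1E site is the strong upstream site. The G1E-ER4 site lay in a Rara intron at 98803547, at percentiles 97.3 and 92.9 in G1E-ER4, inside a region of all 4 lists. G1E list 1 had a peak at percentile 90.03 there with its summit at 98803265. G1E list 2 covered the same point with a peak at percentile 98.9, whose summit lay outside the window at 98798924. Peaks of both G1E lists thus covered this point, without a summit within 100 bp. Each peak has 1 signal value, so these percentiles do not give the strength at the point itself.

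Of the window's 85 regions, 12 had both G1E lists and 1 G1E-ER4 list, and 0 had both G1E-ER4 lists and 1 G1E list. Over the genome 12171 and 5491 of 188044 regions did. Of the 12, 5 had G1E-ER4 list 1 (5.88% of the window's regions, against 2.43% over the genome). The other 7 had list 2 (8.24%, against 4.05%). Regions of both G1E-ER4 lists with only G1E list 1 or 2 made up 1.38% or 1.54% of the genome's. The window was chosen for its G1E-only sites, so nothing is read from these differences. In Tns4, chr11:98942369-98944523 was at percentile 51.8 in G1E-ER4 list 2 and at 74.9 and 54.7 in G1E. An intron site of Tns4, chr11:98936003-98937181, was at 46.5 in G1E-ER4 list 1 and at 28.3 and 63.4 in G1E. At chr11:98983840-98986537, towards Ccr7, G1E-ER4 list 1 stood at 78.0 and the G1E lists at 75.7 and 81.8, and no peak of G1E-ER4 list 2 fell there.

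At the start of Tns4, a peak came within 1000 bp at percentile 41.3 in G1E-ER4 list 2 and none did in list 1, against percentiles 31.7 and 59.8 in G1E lists 1 and 2. Their summits were 1137 bp from the start in G1E-ER4 list 2 and 605 and 380 bp in G1E. G1E-ER4 list 2 had a further, weak peak at percentile 6.36 with its summit at 98950742, 122 bp from the start. At Igfbp4, a site upstream of the start, 1289 bp from it in G1E-ER4 list 1, had its summits between 98901250 and 98901277 in all 4 lists. It was at percentiles 89.4 and 83.5 in G1E-ER4, against 83.0 and 86.1 in G1E. G1E-ER4 list 2 had another summit 27 bp from the Igfbp4 start, at percentile 77.6. In both G1E lists the peak of the upstream site itself reached across the start, and no peak of G1E-ER4 list 1 covered it. The Igfbp4 gene itself held no G1E-only region, with 6 and 3 peaks in G1E-ER4, against 4 and 3 in G1E.

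The neighbouring genes set the scale. The promoter of Top2a, the topoisomerase that untangles chromosomes in dividing cells, was at 96.3 and 92.7 in G1E-ER4, against 92.1 and 98.9 in G1E. The promoter of Smarce1, a subunit of the SWI/SNF chromatin remodelling complex, had no peak in G1E-ER4 list 1 and stood at 91.5 in list 2, and at 88.2 and 84.6 in G1E. Ccr7, a chemokine receptor gene of lymphocytes and dendritic cells, had no peak within 1000 bp of its start in any list. A site in its intron was open in all 4, at 84.5 and 70.5 in G1E-ER4, against 66.8 and 67.1 in G1E. Another intron region of all 4 lists, chr11:99010478-99012324, had its best peaks at 68.5 and 86.3 in G1E-ER4, against 87.45 and 79.9 in G1E. Gjd3, a gap junction gene, had a peak within 1000 bp of its start at percentiles 60.0 and 74.4 in G1E-ER4 and at 70.9 in G1E list 1. Krt222, a keratin-like gene at the edge, had 1 in G1E list 2 alone, at 36.1. For Rara, peaks within 1000 bp of its most upstream start, outside the window, were at 43.7 and 85.9 in G1E-ER4, against 49.5 and 91.5 in G1E. Their summits were 1352 and 2340 bp from that start in G1E-ER4 and 69 and 2381 bp in G1E. Near another Rara start, also outside the window, summits were at 97.7 and 98.0 in G1E-ER4, against 97.3 and 98.9 in G1E. The nearest genes outside the window are Cdc6 below and Krt24 above.

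Sites that both states opened at the same point were joined by summits in steps of at most 100 bp. In the window 8 sites had a summit in all 4 lists, and their mean percentile differed by a median of 1.44 points (G1E-ER4 minus G1E), from -6.35 to 15.9. Regardless of sign, the states differed by a median of 5.61 points, while the 2 lists of a state differed by a median of 15.00 points in G1E-ER4 and 5.61 points in G1E. The difference between the states was smaller than that between the G1E-ER4 lists and about equal to that between the G1E lists. The first is between means of 2 lists, which vary less than single lists, so the measures are not alike and no conclusion is drawn. Both G1E-ER4 percentiles exceeded both G1E percentiles at 1 site, against a background of 17.0% of 19895 sites. They lay below both G1E percentiles at 0 sites, against 15.9%. The 1 site was the Ccr7 intron site with summits from 99009414 to 99009456. The boundary site in that UTR exon of Tns4 (98927473 to 98927510) was at 89.7 and 68.8 in G1E-ER4, against 84.6 and 86.6 in G1E.

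The 2 G1E-ER4-only regions lay away from Tns4. The region chr11:99087619-99088043 in Smarce1, with its strongest summit 3877 bp from the nearest start of that gene, was at percentiles 81.4 and 69.7 in G1E-ER4, with summits 28 bp apart. The region chr11:98838773-98839455, between Rara and Gjd3, was at 65.8 and 39.1.

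Counted without merging, 14 of 50 peaks (28.0%) of G1E-ER4 list 1 and 10 of 43 (23.3%) of list 2 met no G1E peak, and 27 of 76 (35.5%) of G1E list 1 and 22 of 58 (37.9%) of list 2 met no G1E-ER4 peak. Over the genome the shares were 40.8% and 36.0% for the G1E-ER4 lists and 29.8% and 34.1% for the G1E lists. The window was chosen for its G1E-only regions, whose 29 G1E peaks are unmet by definition, so nothing is read from these differences. The unmet peaks ranked below the met ones in median in each list, at percentiles 35.7 and 37.4 in G1E-ER4, against 38.6 and 38.0 in G1E. Peaks that met the other state had medians of 61.3 and 69.1 in G1E-ER4, against 64.1 and 63.9 in G1E.

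Most of the G1E-only regions were low in rank. In 8 of 14 both G1E lists were under percentile 50, against 36.7% of the 7505 G1E-only regions of the genome, and in 1 of 14 both were at 50 or above, against 26.6%. Their 29 G1E peaks had a median percentile of 37.8, from 8.07 to 79.4, against 45.3 for G1E-only peaks over the genome. Regions were 376 to 1834 bp wide, and the gap to the nearest G1E-ER4 peak was 40 to 3750 bp, with a median of 1629 bp.

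The position of the summit was also compared between the 2 G1E lists, with no test. The summits lay within 100 bp in 5 of 14 (35.7%), against 67.4% of all G1E-only regions of the genome. In the window's 13 regions of all 4 lists they did so in 9 (69.2%), against 82.6% of such regions over the genome. The median distance was 178 bp in the G1E-only regions of the window and 47.0 bp in those of the genome. The 5 regions with agreeing summits were those printed above, with distances of 46 to 77 bp.

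**Figure D4:**
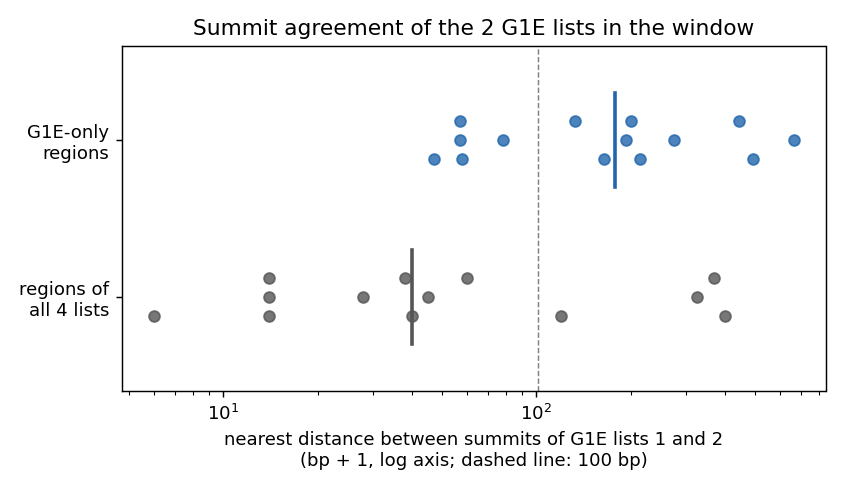
Distance between the nearest summits of G1E lists 1 and 2 (x axis, bp plus 1, log scale) in each region of the window, by class, with the median as a vertical bar. Of 14 G1E-only regions 5 lie within 100 bp, and of 13 regions of all 4 lists 9 do.

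In sequence, the 29 G1E peaks of the window's G1E-only regions had a median GC of 54.0% over 200 bases around the summit, against 50.0% for the 15422 peaks of G1E-only regions over the genome. GATA motifs were in 4 of 29 (13.8%), against 35.3% of those 15422 peaks and 26.3% and 30.0% of all peaks of G1E lists 1 and 2. RUNX motifs (TGTGGT) were in 2 (6.90% against 20.0%), ETS motifs (CGGAAG and, as a variant, AGGAAG) in 12 (41.4% against 36.5%) and KLF motifs (CCNCNCC) in 19 (65.5% against 46.8%). E-boxes (CANNTG) were in 22 (75.9% against 70.4%), AP-1 motifs (TGANTCA) in 2 (6.90% against 8.01%) and a CTCF core (AGGNGGC and, as a variant, AGNGGGC) in 8 (27.6% against 26.2%). All were searched on both strands, N is any base, and motifs may overlap. Peaks of the 2 lists in a region can share bases, so these are fewer than 29 separate sequences, and the shares are descriptions. The 51 G1E peaks of the window's regions of all 4 lists had a median GC of 55.5%, against 55% for such peaks over the genome. GATA motifs were in 7 of them (13.7% against 25.6%) and KLF motifs in 64.7% (against 62.5%). RUNX, ETS and CTCF motifs had larger shares there than in the G1E-only regions, and E-boxes and AP-1 motifs smaller ones. A GATA share below that of the genome was thus not particular to the G1E-only regions.

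Over all peaks of the window, a GATA motif was in 32.0% and 41.9% of peaks in G1E-ER4 lists 1 and 2, against 32.6% and 27.2% over the genome. In G1E it was in 19.7% and 22.4% of the window's peaks, against 26.3% and 30.0% over the genome. In the window the share was larger in both G1E-ER4 lists than in both G1E lists. Motif matches are letters in a window and not sites of binding.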

How the data were processed

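Per the series design text, 20-base tags from nuclei digested at several DNase I concentrations were aligned to mm9 with Bowtie. A tag that matched more than once stayed, at the best match, lanes were pooled per replicate, F-seq turned tags into a smoothed density, and peaks were taken by a gamma fit, list by list. No tool version, depth or peak threshold is named there. Tags with several matches can place peaks in repeats. The signal deposited by the authors is this density, with no scaling between lists stated, so it was used only as a percentile within a list. All other columns were constant or positional.

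Groups follow the cell named in the labels. Coordinates are 1-based on mm9 (NCBIM37 sequence, GENCODE vM1 protein-coding genes), and no peak passed a chromosome end. Peaks sharing 1 bp were merged, and promoters reach 1000 bp from a start. Motifs were searched in 200 bases around summits. Genes named are those overlapping the window and the nearest on each side. The members, lists and rules were chosen with earlier results of these data known. Some marker genes are not reported here. The merging, classing and run rules were tested on simulated data. Python 3.11.15, pandas 2.3.3, numpy 2.4.6, pysam 0.24.0, samtools 1.23.1 and matplotlib 3.10.9 were used. Alternatives were other overlaps, stronger peaks only, other windows and leaving out each list.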

Additional observations from a re-analysis of the deposited data

How the results depend on the processing

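With 50% reciprocal overlap 9 G1E-only regions were counted (14 as reported), and with the strongest 50% or 20000 peaks 3 or 1. Leaving out each list gave 20 to 27. G1E-ER4-only regions numbered 2 as reported, 1 and 0 with the strongest 50% and 20000 peaks, 4 in the widened window and 2 to 14 without each list. The G1E peaks met by no G1E-ER4 peak, 49 as reported, numbered 86 with 50% reciprocal overlap, 94 with summits within 100 bp, 18 and 4 with the strongest 50% and 20000 peaks, and 22 to 72 without each list. The longest run, 35490 bp as reported, was 7426 bp with the strongest 50% of peaks, 6338 bp when any G1E-ER4 peak ended it, and 15958 to 58791 bp without each list. The window's rank among 300 kb windows, 15 as reported, was 197 with the strongest 50% of peaks, 1 with windows of 100 kb, and 14 to 139 without each list. Fewer peaks or fewer lists change these counts by construction. No paired analysis was possible because no result comes from a test and each state is 1 sample. Depth is unknown, so an absent peak means only that the site was not among the 100000 of its list.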

Other observations

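The body of Top2a, 31.2 kb long, had 0 and 0 peaks in G1E-ER4, against 1 and 0 in G1E, although its promoter ranked at percentile 92.1 or above in all 4 lists. The single peak, in G1E list 1, was at percentile 73.0.

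Over Rara, G1E-ER4 list 1 had a peak 16378 bp wide at percentile 96.9, where G1E-ER4 list 2 and both G1E lists had several narrower peaks. All 4 lists marked the region that holds these peaks.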
